A study of Mus musculus with 8 samples.

Results

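The genes described here are 10 members of the JAK-STAT pathway and its feedback arm: the kinases Jak1 and Jak3, the transcription factors Stat3, Stat5a and Stat5b, the inhibitors Cish, Socs1, Socs2 and Socs3, and the kinase Pim1. They were chosen by symbol, and they make up 10 of the 38215 genes in the deposited tables. All 10 passed the filter on low counts that left 13397 genes for testing. The members were measured by RNAseq of FoxP3+ cells from the bone marrow (BM-Treg, 4 libraries) and the spleen (SP-Treg, 4 libraries), to ask how Treg of the 2 tissues differ. The labels give C57Bl/6 as the genotype of every library, and the study's methods describe naïve B6.FoxP3-GFP reporter mice, 12 weeks of age, in which a green fluorescent protein marks cells that express FoxP3. No mouse was treated and no gene was deleted. BM-Treg libraries 1 to 3 were labelled batch 1 and female, whereas BM-Treg library 4 and all SP-Treg libraries were labelled batch 3 and male. The study's methods name female mice as the default, which goes against the male label of these libraries. By the labels, batch and sex cannot be told apart, and 1 BM-Treg library is all that batch 3 offers against the spleen. Each library was made from a bulk sort, so that fewer cells of a type and less RNA per cell cannot be told apart. The labels do not name the animals behind each library, and p-values measure the spread between these libraries.

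Cytokines that bind receptors with the common gamma chain, such as IL-2 in Treg, bring together JAK1 and JAK3, which phosphorylate STAT5A and STAT5B. The STAT5 dimers then enter the nucleus, where in Treg they act on genes that include Foxp3 and the IL-2 receptor alpha chain. Among their targets are brakes on the same pathway: CIS (the product of Cish) and the SOCS proteins bind receptors or JAKs and recruit a ubiquitin ligase. Pim1 is a further STAT target, and its product is a serine/threonine kinase that promotes survival and growth and, unlike most kinases, is active as made, so that its activity largely follows its amount. STAT3 answers mainly to IL-6, IL-10 and related cytokines and induces Socs3.

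STAT dimers recognise the palindrome TTCNNNGAA, and the promoters of the members were searched for it to show which of these feedback genes carry the motif next to their start. RefSeq promoters (GRCm38.p6), which run from 250 bases before to 50 bases after an annotated start, were found for 9 of the 10 members. The palindrome, which reads the same on both strands, was present in those of Cish and Socs3. Cish held 2 matches separated by 2 bases, the first of them beginning at the RefSeq start. Socs3 held 1 match, beginning 154 bases before its RefSeq start. The deposited gene positions begin farther upstream for both, at chr9:107296026 for Cish and chr11:117970047 for Socs3. Windows around those positions were not searched. Of all 32851 promoters of this length in the table, 8.3% held at least 1 match and 0.457% held 2 or more. The promoter of Cish (chr9:107296409-107296708, plus strand), that of Socs3 (chr11:117969317-117969616, minus strand) and the more upstream of the 2 promoters of Pim1 (chr17:29490535-29490834, plus strand) are given 5′ to 3′ with each match in capitals. Pim1 is shown because it was the member that passed the test between tissues, and it has no match in either window.
Cish: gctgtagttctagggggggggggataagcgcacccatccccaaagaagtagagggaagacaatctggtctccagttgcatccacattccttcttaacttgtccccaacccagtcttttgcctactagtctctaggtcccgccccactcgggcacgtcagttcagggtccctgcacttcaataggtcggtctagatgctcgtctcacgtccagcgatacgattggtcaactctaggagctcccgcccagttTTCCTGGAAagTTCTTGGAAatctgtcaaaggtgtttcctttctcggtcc
Socs3: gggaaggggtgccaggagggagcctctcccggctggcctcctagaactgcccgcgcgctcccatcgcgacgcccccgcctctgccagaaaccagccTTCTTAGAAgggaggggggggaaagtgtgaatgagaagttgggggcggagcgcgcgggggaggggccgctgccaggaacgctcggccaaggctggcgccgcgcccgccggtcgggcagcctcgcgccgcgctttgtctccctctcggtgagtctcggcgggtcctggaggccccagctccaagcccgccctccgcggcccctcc
Pim1: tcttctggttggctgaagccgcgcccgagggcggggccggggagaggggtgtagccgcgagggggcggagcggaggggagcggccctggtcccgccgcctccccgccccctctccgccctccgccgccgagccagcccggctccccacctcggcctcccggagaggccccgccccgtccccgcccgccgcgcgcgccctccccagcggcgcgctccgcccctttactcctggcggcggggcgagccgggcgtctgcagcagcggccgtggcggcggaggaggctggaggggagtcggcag
A match in these windows describes their letters and does not show binding.

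Each library held between 12427136 and 21921252 expected counts. Levels are given as CPM, the counts of a gene relative to the total of its library, scaled by TMM, a method that sets the bulk of genes level between libraries. Differences are log2 fold changes of BM-Treg over SP-Treg, and their p-values come from the quasi-likelihood test of edgeR, adjusted by the Benjamini-Hochberg method over all genes tested. A gene was called where the adjusted p was below 0.05. Gene positions are those of the deposited tables, on GRCm38, and cover whole genes with their exons and introns. All 9 Treg markers examined were detected, and they summed to 7726 to 9183 CPM in the BM-Treg and to 8538 to 9274 CPM in the SP-Treg libraries. No marker found was at 0 in all libraries. Genes of other cells were low beside those of Treg, but both CD8 T cell markers summed to 10.9 to 12.6 CPM in BM-Treg against 13.2 to 41.0 CPM in SP-Treg, and 2 plasma cell markers to at most 0.394 CPM against 0.575 to 25.2 CPM (exact two-sided permutation p = 0.0286 for each, the smallest that 4 against 4 libraries can give). Markers of B cells (4 of 4 found, 10.7 to 13.7 CPM against 6.32 to 88.3), erythroid cells (4 of 6, 4.76 to 9.49 against 1.15 to 128.7), neutrophils (7 of 7, 1.31 to 9.86 against 0.216 to 16.9), monocytes and macrophages (3 of 4, 13.4 to 18.7 against 7.11 to 27.2) and plasmacytoid dendritic cells (4 of 4, 38.7 to 51.5 against 17.0 to 53.0) overlapped between the tissues. In the plasmacytoid dendritic cell sum, Ccr9 was at 28.9 to 39.6 CPM in BM-Treg and 8.76 to 41.7 CPM in SP-Treg. Siglech reached at most 0.821 and 0.334 CPM there, and Ly6d 0.930 and 4.14 CPM. The B cell, erythroid, neutrophil and monocyte sums were all lowest in SP-Treg 1, and the part of these cells in the results was not tested.

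Of the 10 members, 1 passed the test, Pim1, which was higher in BM-Treg. Over all genes tested 8.75% were called, 3.72% as higher and 5.02% as lower in BM-Treg, so that 1 of 10 is near the share of any genes. No member was called lower, although Socs2 and Jak3 were lower at an unadjusted p below 0.05, and DESeq2 called Socs2 lower besides Pim1 higher (12.7% of genes were called by DESeq2). The log2 fold change was positive for 5 members and negative for 5, and its median was -0.08, beside -0.01 over all genes tested. The 4 libraries of each tissue did not overlap for Pim1, a pattern seen in 16.2% of genes, and overlapped for the other 9 members. With batch as a term, 0 members and 1.93% of all genes were called, and Pim1 had an edgeR adjusted p of 0.133.

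**Figure D1:**
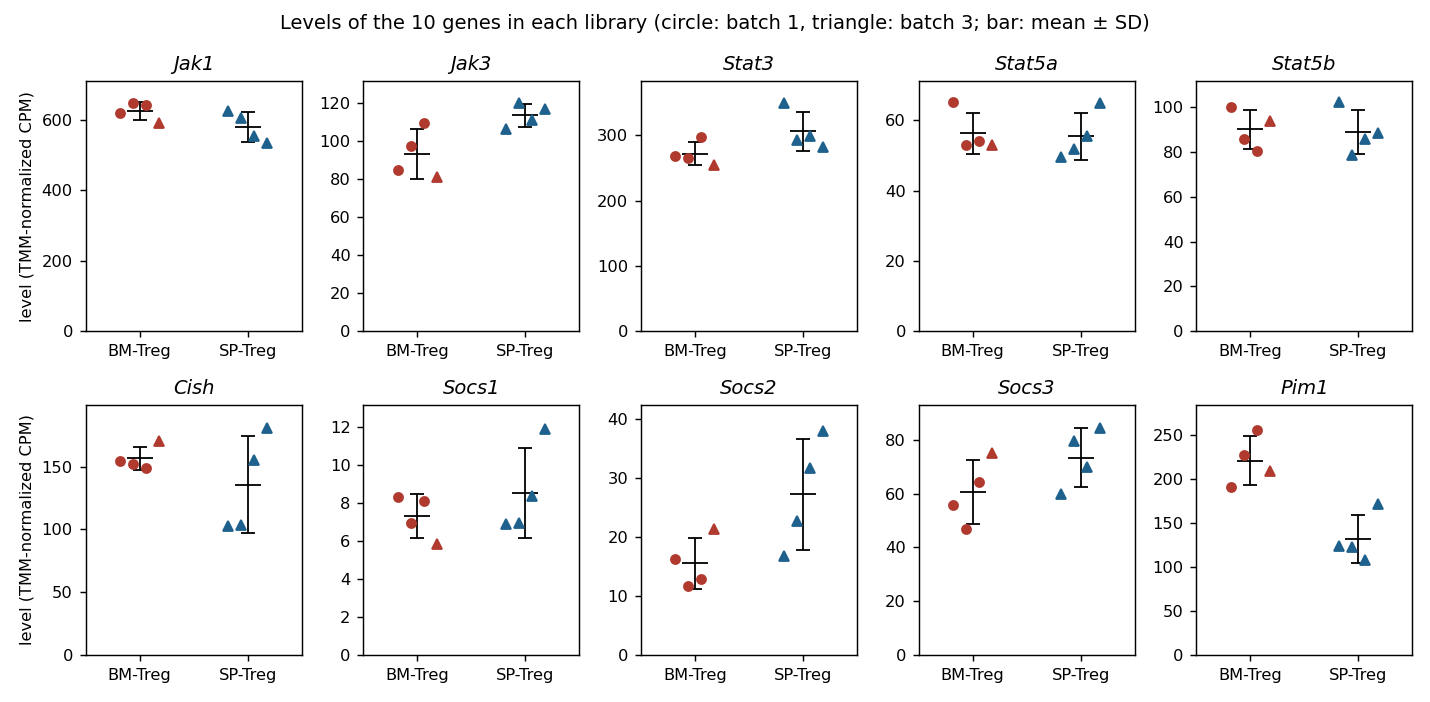
Level of each gene in every library, in TMM-normalized CPM on axes that start at 0, with BM-Treg in red and SP-Treg in blue, circles for batch 1 and triangles for batch 3, and the mean ± SD of 4 libraries in black. Pim1 is the gene whose BM-Treg libraries (191 to 256 CPM) all lie above its SP-Treg libraries (108 to 171 CPM).

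Pim1 (ENSMUSG00000024014, chr17:29490812-29495445, plus strand) was at 191, 227, 256 and 208 CPM in BM-Treg 1 to 4 and at 124, 123, 108 and 171 CPM in SP-Treg 1 to 4. The lowest BM-Treg library was still above the highest SP-Treg library, which was SP-Treg 4. The means were 221 ± 27.7 CPM and 131 ± 27.5 CPM (SD, n = 4 each). This made a log2 fold change of 0.75 (SE 0.14, adjusted p = 0.00451 by edgeR's quasi-likelihood test), or 1.68-fold with a 95% interval of 1.36 to 2.06. Within batch 3, BM-Treg 4 was above the SP-Treg mean by 0.68 on the log2 scale, with no test, and the fit with batch as a term gave 0.66. Leaving out each of the 8 libraries in turn gave values between 0.66 and 0.90, and Pim1 was called in all 8 fits. On the length-scaled measure, FPKM, Pim1 was at 119 ± 17.1 in BM-Treg and 67.9 ± 14.8 in SP-Treg.

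A long noncoding RNA gene on the opposite strand, AC163629.2, overlaps Pim1 over 1114 bases, and the sources used here do not state that counting used strand. AC163629.2 was at 7.66, 5.28, 6.52 and 3.34 CPM in BM-Treg and at 3.02, 1.99, 3.51 and 2.72 CPM in SP-Treg. Pim1 was at 108 CPM or more in every library, and whether reads of AC163629.2 were counted for it was not tested. AC163629.2 had a log2 fold change of 1.03 (SE 0.30, edgeR adjusted p = 0.0443), and 0.27 within batch 3. It lost its call without BM-Treg 1, 2 or 3 or SP-Treg 1, 2 or 4 (edgeR adjusted p up to 0.122). The tested genes whose profile over the 8 libraries was most like that of Pim1 were Zmat5 and Rabep2, with root mean square differences of 0.0713 and 0.105 in centred log2 CPM, where the median over all genes was 0.515.

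Socs2 (ENSMUSG00000020027, chr10:95385362-95417180, minus strand), whose product is best known as a brake on growth hormone receptor signalling and is itself induced through STAT5, showed the largest difference in size among the members on the count scale over all libraries. On log2(FPKM + 1) it was at -0.51 and Pim1 at 0.82. It was at 16.1, 11.7, 12.8 and 21.4 CPM in BM-Treg 1 to 4 and at 16.7, 22.6, 31.6 and 37.9 CPM in SP-Treg 1 to 4. BM-Treg 1 to 3 were below every SP-Treg library, whereas BM-Treg 4 was above SP-Treg 1. The means were 15.5 ± 4.35 CPM and 27.2 ± 9.37 CPM (SD, n = 4 each), 1.77-fold apart. Its difference of -0.82 on the log2 scale (SE 0.26, 95% interval -1.39 to -0.25) did not pass, with an edgeR adjusted p of 0.0771. Without BM-Treg 4 it was -1.01 (adjusted p = 0.0409 by edgeR), and without SP-Treg 1 it was -0.98 (adjusted p = 0.0193 by edgeR). Within batch 3 it was -0.33, and with batch as a term it was -0.35 (edgeR adjusted p = 0.671). DESeq2 gave an adjusted p of 0.0145.

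Cish (ENSMUSG00000032578, chr9:107296026-107302784, plus strand), a STAT5 target whose product blocks STAT5 at cytokine receptors, was at 155, 152, 149 and 170.0 CPM in BM-Treg 1 to 4 and at 103, 104, 155 and 180.3 CPM in SP-Treg 1 to 4. On CPM the BM-Treg libraries were close together and lay inside the range of the SP-Treg libraries, which fell into a low and a high pair. On FPKM the BM-Treg libraries were at 73.4, 52.2, 65.7 and 56.7, with BM-Treg 1 above every SP-Treg library. The SP-Treg libraries were at 39.9, 33.7, 40.25 and 66.7 FPKM, and SP-Treg 1 to 3 were below every BM-Treg library. The means were 157 ± 9.25 CPM and 136 ± 38.6 CPM (SD, n = 4 each). On the log2 scale the difference in counts was 0.21 (SE 0.17, 95% interval -0.15 to 0.57, edgeR adjusted p = 0.499), and 0.34 within batch 3. On log2(FPKM + 1) it was 0.49 (limma adjusted p = 0.168). An antisense gene, Gm17041, overlaps Cish over 1459 bases, with 7.26 ± 2.22 CPM in the BM-Treg and 4.00 ± 1.73 CPM in the SP-Treg libraries (SD, n = 4 each).

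Socs1 (ENSMUSG00000038037, chr16:10783808-10785536, minus strand), which encodes a direct inhibitor of JAK kinases, was the lowest member, with 70 to 185 counts per library. It was at 8.32, 6.95, 8.10 and 5.85 CPM in BM-Treg 1 to 4 and at 6.90, 6.93, 8.36 and 11.9 CPM in SP-Treg 1 to 4. The tissues overlapped, and SP-Treg 4 was the highest library. Socs1 had a log2 fold change of -0.22 (SE 0.22, 95% interval -0.69 to 0.25, edgeR adjusted p = 0.601), and -0.53 within batch 3.

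Socs3 (ENSMUSG00000053113, chr11:117966079-117970047, minus strand), which encodes the inhibitor of gp130 receptors, was at 56.0, 47.0, 64.3 and 75.3 CPM in BM-Treg 1 to 4 and at 59.8, 79.7, 69.8 and 84.4 CPM in SP-Treg 1 to 4. BM-Treg 4 was the highest BM-Treg library and lay inside the SP-Treg range. The means were 60.6 ± 12.1 CPM and 73.4 ± 10.9 CPM (SD, n = 4 each). For Socs3 the log2 fold change of -0.28 (SE 0.15, 95% interval -0.59 to 0.04, edgeR adjusted p = 0.278) changed sign within batch 3, where it was 0.05.

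SP-Treg 4 was the highest SP-Treg library for each of Cish, Socs1, Socs2, Socs3 and Pim1, and also for Stat5a. The highest SP-Treg library exceeded the lowest 2.26-fold for Socs2, 1.75-fold for Cish, 1.72-fold for Socs1, 1.59-fold for Pim1 and 1.41-fold for Socs3, and 1.13-fold to 1.31-fold for the JAK and STAT members. Il2ra, the IL-2 receptor alpha chain and a STAT5 target, was likewise at 848, 942, 1431 and 1674 CPM in SP-Treg 1 to 4. Other STAT5 targets, named after their values were seen, went both ways. Lta, Bcl2 and Tnfrsf4 were also highest in SP-Treg 4, whereas Foxp3, Mcl1, Ccnd2, Ccnd3 and Prdm1 were lowest there.

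Stat5a and Stat5b, the closely related factors that carry the IL-2 signal, did not differ detectably between the tissues, and had the smallest differences of the members. Stat5a (ENSMUSG00000004043, chr11:100859351-100885169, plus strand) was at 65.1, 53.0, 54.0 and 53.0 CPM in BM-Treg 1 to 4 and at 49.4, 51.9, 55.7 and 64.8 CPM in SP-Treg 1 to 4. Stat5b (ENSMUSG00000020919, chr11:100780731-100850724, minus strand) was at 100.1, 85.9, 80.4 and 94.1 CPM in BM-Treg 1 to 4 and at 102, 78.6, 86.0 and 88.5 CPM in SP-Treg 1 to 4. For both genes the libraries of the tissues were intermixed. Their log2 fold changes were 0.02 (SE 0.12, edgeR adjusted p = 0.937) for Stat5a and 0.02 (SE 0.11, edgeR adjusted p = 0.939) for Stat5b. The 95% intervals ran from 0.852-fold to 1.21-fold for Stat5a and from 0.861-fold to 1.19-fold for Stat5b. Within batch 3 the values were -0.05 and 0.10.

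Stat3 (ENSMUSG00000004040, chr11:100885098-100939540, minus strand) was at 269, 266, 297 and 255 CPM in BM-Treg 1 to 4 and at 349.9, 293, 299 and 282 CPM in SP-Treg 1 to 4. BM-Treg 1, 2 and 4 were below every SP-Treg library, and BM-Treg 3 was inside their range. Stat3 had a log2 fold change of -0.17 (SE 0.10, 95% interval -0.39 to 0.05, edgeR adjusted p = 0.335), and -0.25 within batch 3. Stat3, Stat5a and Stat5b lie within 158.8 kb of chromosome 11, where the ends of Stat3 and Stat5a, on opposite strands, overlap by 72 bases. Stat5a and Stat5b also share sequence: 9.76% of the 80-base windows of the leading Stat5a transcript and 6.95% of those of Stat5b were identical between the genes, so that reads there could be counted for either. For Socs2, 13.5% of windows were also found in Gm9847, a gene on chromosome 12 that reached at most 0.220 CPM in any library. For Pim1, 8.21% of windows were also found in Gm26885. The leading Cish transcript shared 510 of 4618 windows with other genes, 326 of them with Gm17041. Whether reads from these windows of Pim1 and Cish were counted for the other genes was not tested.

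Jak1 (ENSMUSG00000028530, chr4:101152367-101265282, minus strand), which pairs with most cytokine receptors of T cells, was at 621, 648, 643 and 591 CPM in BM-Treg 1 to 4 and at 627, 605, 553 and 533 CPM in SP-Treg 1 to 4. BM-Treg 2 and 3 were above every SP-Treg library, and the others overlapped. Jak1 had a log2 fold change of 0.11 (SE 0.10, 95% interval -0.10 to 0.32, edgeR adjusted p = 0.543), and 0.04 within batch 3. Jak3 (ENSMUSG00000031805, chr8:71676296-71690575, plus strand), the partner of the common gamma chain, was at 84.5, 97.5, 109.7 and 81.3 CPM in BM-Treg 1 to 4 and at 106, 119.8, 111 and 117 CPM in SP-Treg 1 to 4. BM-Treg 1, 2 and 4 were below every SP-Treg library. For Jak3 the log2 fold change of -0.28 (SE 0.11, 95% interval -0.52 to -0.05) did not pass, with an edgeR adjusted p of 0.131, and was -0.46 within batch 3. Insl3, a gene on the same strand, overlaps Jak3 over 1362 bases. It was at 8.37, 13.7, 14.5 and 21.3 CPM in BM-Treg 1 to 4 and at 14.9, 16.7, 15.3 and 17.9 CPM in SP-Treg 1 to 4. Whether reads of Jak3 were counted for Insl3 was not tested.

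**Figure D2:**
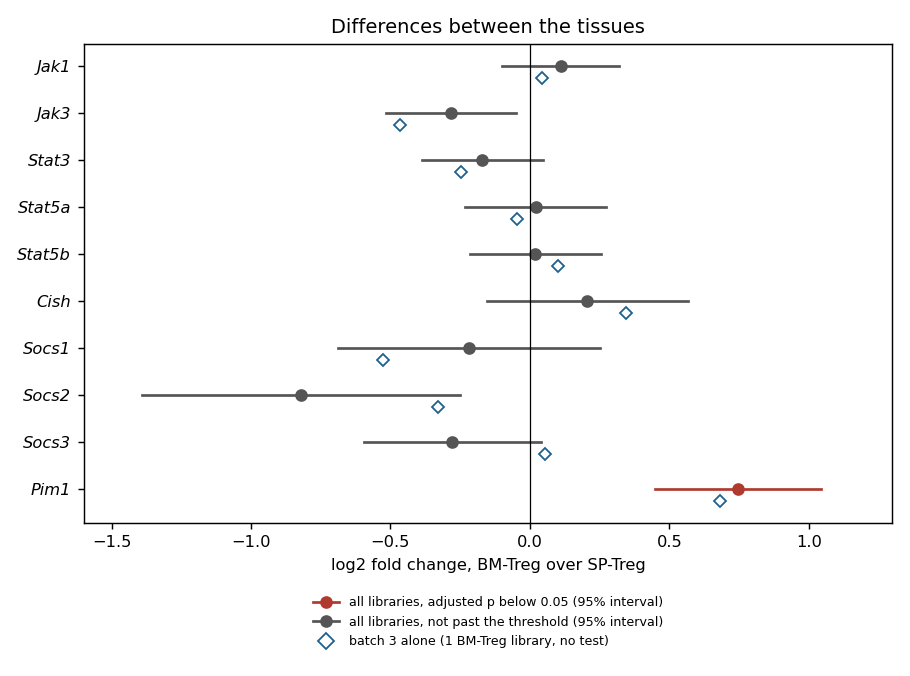
Log2 fold change of BM-Treg over SP-Treg for each gene from all 8 libraries (circles, with 95% intervals, red where the adjusted p was below 0.05) and from batch 3 alone (diamonds, 1 BM-Treg library, no test). Pim1 lies at 0.75 and Socs2 at -0.82, and the batch 3 value of Socs2 is nearer to 0, at -0.33.

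Levels can be compared between genes on the FPKM scale, which divides by transcript length. In BM-Treg the order was Jak1 (157 ± 15.8 FPKM), Pim1 (119 ± 17.1), Stat3 (111 ± 11.1), Cish (62.0 ± 9.44), Jak3 (25.8 ± 4.30), Socs3 (25.6 ± 3.75), Stat5b (18.2 ± 1.54), Stat5a (17.5 ± 2.44), Socs2 (8.35 ± 1.55) and Socs1 (6.56 ± 1.201, all SD with n = 4). Neighbours in this order did not overlap between Stat3 and Cish, Cish and Jak3, Socs3 and Stat5b, and Stat5a and Socs2, and overlapped at the other steps. In SP-Treg the order was the same except that Stat3 (115 ± 18.03 FPKM) stood above Pim1 (67.9 ± 14.8 FPKM), with no overlap between these 2 genes. The other SP-Treg levels were 137 ± 17.0 FPKM for Jak1, 45.1 ± 14.7 for Cish, 29.9 ± 1.53 for Jak3, 28.9 ± 3.42 for Socs3, 17.1 ± 3.13 for Stat5b, 16.01 ± 1.96 for Stat5a, 12.6 ± 3.87 for Socs2 and 7.26 ± 1.901 for Socs1. There Cish did not overlap with Jak3, nor Socs3 with Stat5b, and the other neighbours overlapped. Jak1 was thus the most abundant member and Jak3 far below it in both tissues, and Cish and Socs3 were the more abundant of the inhibitors.

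**Figure D3:**
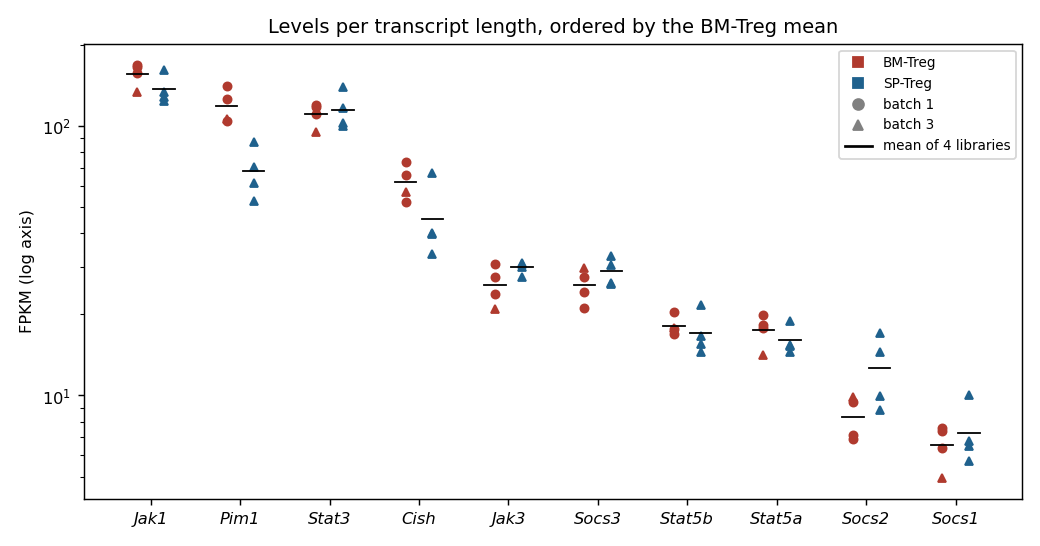
FPKM of each gene in every library on a log axis, with genes ordered by the BM-Treg mean, BM-Treg in red, SP-Treg in blue, circles for batch 1, triangles for batch 3 and black bars for means of 4 libraries. Pim1 stands level with Stat3 in BM-Treg (119 and 111 FPKM) and below it in SP-Treg (67.9 and 115 FPKM).

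Ratios of members within a library do not depend on scaling between libraries, and 4 pairs were compared as log2 ratios of FPKM + 0.1. The pairs, like the members, were chosen with earlier results of these data known. The ratio of Socs2 to Cish was -2.94, -2.85, -3.24 and -2.51 in BM-Treg 1 to 4 and -2.16, -1.74, -1.47 and -1.96 in SP-Treg 1 to 4. Every SP-Treg library thus had more Socs2 for its Cish than any BM-Treg library. The difference was -1.05 (means -2.88 ± 0.30 and -1.83 ± 0.29, exact two-sided permutation p = 0.0286, 0.0571 after adjustment over the 4 pairs), and -0.67 within batch 3. The ratio of Jak3 to Jak1 was -2.73, -2.61, -2.42 and -2.67 in BM-Treg 1 to 4 and -2.38, -2.15, -2.21 and -2.01 in SP-Treg 1 to 4. Here too the tissues did not overlap, and the difference was -0.42 (means -2.61 ± 0.13 and -2.19 ± 0.15, exact two-sided permutation p = 0.0286, 0.0571 after adjustment). From CPM in place of FPKM the Jak3 to Jak1 libraries overlapped, with a difference of -0.40 (exact permutation p = 0.0571). Within batch 3 the FPKM difference for Jak3 to Jak1 was -0.48. Neither ratio passed the adjustment. Both had the smallest p that 4 against 4 libraries can give. With the other pairs as they were, the adjusted p could not have been below 0.0571, however far apart the tissues lay. Stat5b to Stat5a differed by -0.03 (exact two-sided permutation p = 0.83, also after adjustment) and Socs3 to Socs1 by -0.05 (exact two-sided permutation p = 0.771, adjusted 0.83), with overlapping libraries. Both turned sign within batch 3, to 0.24 and 0.56, with no test.

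**Figure D4:**
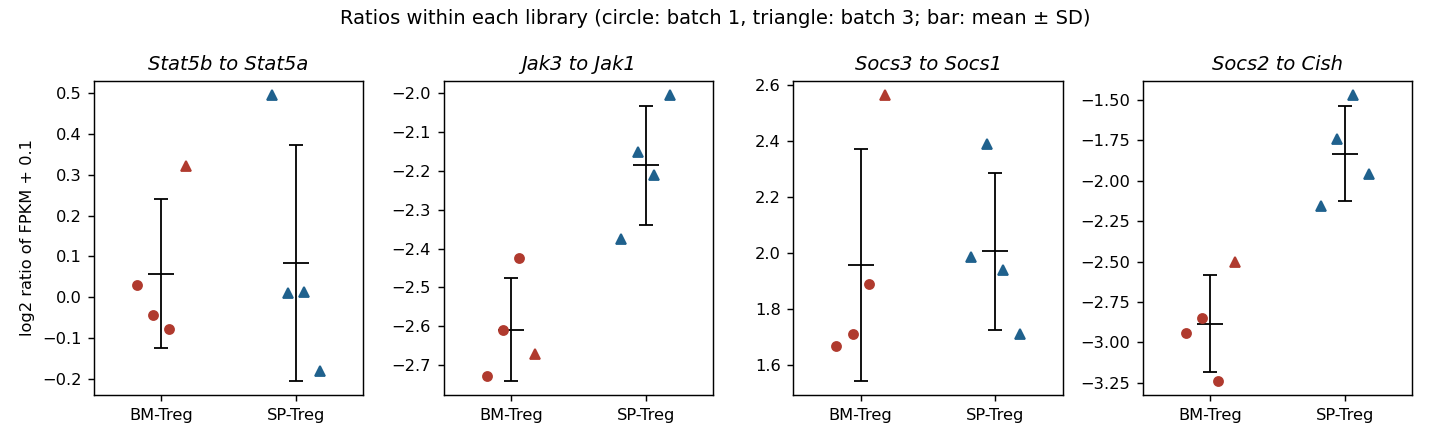
Log2 ratio of FPKM + 0.1 for 4 pairs of genes within each library, with circles for batch 1, triangles for batch 3 and the mean ± SD of 4 libraries in black. The vertical axes differ between panels and do not start at 0, and the Socs2 to Cish ratio is below -2.5 in every BM-Treg library and above -2.2 in every SP-Treg library.

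The transcripts to which reads of the members were assigned did not differ detectably between the tissues. Of 15 transcripts from 6 members, 0 had an exact permutation p below 0.05 for their share of the gene's counts, and the smallest p was 0.114. That was Cish-202, a processed transcript, which took 54.4% ± 6.38 of Cish counts in BM-Treg and 62.6% ± 5.77 in SP-Treg (SD, n = 4 each, adjusted exact permutation p = 0.857). For Socs2 the split between Socs2-201 and Socs2-214 was unstable, from 0% to 74.4% and from 0% to 89.4% over the 8 libraries, so that its FPKM rests on uncertain lengths. Pim1 and Socs1 have a single listed transcript each.

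Upstream of the members, edgeR called Il7r and Il9r, the specific chains of the IL-7 and IL-9 receptors, and did not call Il2ra, Il2rb or Il2rg, the last of which all 3 receptors share. Il2ra was at 762, 746, 736 and 939 CPM in BM-Treg 1 to 4, with SP-Treg values as given above, and its log2 fold change of -0.62 (SE 0.20) had an edgeR adjusted p of 0.0803. Leaving out SP-Treg 1 or SP-Treg 2 brought that p to 0.0208 and 0.047, and Il2ra was called lower by DESeq2 (adjusted p = 0.0128). Il2rb, the signalling chain shared with IL-15, was at -0.23 (SE 0.11, edgeR adjusted p = 0.236), and Il2rg, the common gamma chain that holds JAK3, at 0.13 (SE 0.13, edgeR adjusted p = 0.585). Il7r was at 578, 623, 605 and 586 CPM in BM-Treg and at 416, 357, 337 and 244 CPM in SP-Treg, and Il9r at 44.2, 42.1, 34.3 and 40.3 CPM against 13.6, 17.0, 11.03 and 10.9 CPM. For both, all BM-Treg libraries were higher. The log2 fold changes were 0.82 (SE 0.14, edgeR adjusted p = 0.00218) for Il7r and 1.61 (SE 0.16, edgeR adjusted p = 8.15e-05) for Il9r, and within batch 3 they were 0.81 and 1.63.

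Of 17 receptor chains that act through JAK1 or JAK3, 5 were higher in BM-Treg, 1 was lower and 11 did not pass, with a median log2 fold change of 0.10. Besides Il9r and Il7r, the higher ones included Ifngr1, a chain of the interferon gamma receptor (0.84, SE 0.13, edgeR adjusted p = 0.00142). The lower one was Il6st, which encodes gp130, the chain that leads to STAT3 (-0.53, SE 0.11, edgeR adjusted p = 0.00964). The remaining higher chains, Il10ra (0.38) and Il6ra (0.55), were named after their values were seen. The call of Il10ra was lost without BM-Treg 2 or 3 or SP-Treg 2 or 3, and that of Il6ra without BM-Treg 1, 2 or 4 or SP-Treg 1, 2 or 4, with edgeR adjusted p up to 0.0938.

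Of 5 other JAK and STAT genes counted, 0 were called by edgeR or by DESeq2 and 0 had an unadjusted p below 0.05, with a median log2 fold change of 0.05. Of 6 other SOCS and PIM genes, 0 were called by edgeR, with 3 at an unadjusted p below 0.05 (Socs5, Pim2 and Pim3) and 2 called by DESeq2, and a median of -0.01. Pim3, a relative of Pim1, was at 0.76 (SE 0.26, edgeR adjusted p = 0.0903) and Pim2 at -0.49 (SE 0.17, edgeR adjusted p = 0.0986), values of opposite sign. Of 6 partners of the SOCS box in its ubiquitin ligase, 0 were called by edgeR, with 2 at an unadjusted p below 0.05 and 1 called by DESeq2, and a median of -0.13.

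Other brakes on JAK-STAT signalling were called in both directions, 2 higher and 3 lower of 12, with a median of -0.21. Lower in BM-Treg were Ptpn6, which encodes the phosphatase SHP-1 (-0.85, SE 0.12, edgeR adjusted p = 0.00105), and Bcl6, a repressor that competes with STAT5 for binding (-0.89, SE 0.15, edgeR adjusted p = 0.00227). Higher were Pias4 (0.80, SE 0.14, edgeR adjusted p = 0.0033) and Pias3 (0.88, SE 0.16, edgeR adjusted p = 0.00412), which encode SUMO ligases of the PIAS family that restrain STATs. The other lower gene, Ptprc, encodes CD45 (-0.43, SE 0.11, edgeR adjusted p = 0.0244). It was named after its values were seen and lost its call without BM-Treg 1, 2 or 3 or SP-Treg 1 or 4 (edgeR adjusted p up to 0.073).

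Of 15 STAT5 target genes other than the members, 3 were lower in BM-Treg, none was higher and 12 did not pass in edgeR, with a median of -0.21. The 3 were Lta, which encodes lymphotoxin alpha (-1.74, SE 0.30, edgeR adjusted p = 0.00343), the survival gene Bcl2 (-0.99, SE 0.18, edgeR adjusted p = 0.00682) and Myc, a driver of growth (-1.04, SE 0.26, edgeR adjusted p = 0.0413). Bcl2 was at 82.0, 78.7, 82.3 and 54.6 CPM in BM-Treg 1 to 4 and at 105, 135, 161 and 192 CPM in SP-Treg 1 to 4. Pim1, also a target of STAT5, was higher in BM-Treg, the tissue in which Bcl2 was lower. Within the spleen both genes were highest in SP-Treg 4. Over SP-Treg 1 to 3, however, Bcl2 rose while Pim1 went from 124 to 123 and 108 CPM. Of 12 STAT3 target genes, 1 was higher, Junb (1.31, SE 0.27, edgeR adjusted p = 0.0216), and 2 were lower, Myc and Batf (-0.56, SE 0.16, edgeR adjusted p = 0.0483), with a median of -0.19. Of 11 genes for substrates of PIM kinases, edgeR called 2 lower and 0 higher (4 higher at an unadjusted p below 0.05), with a median of 0.30 that is of the opposite sign to the 2 called genes. DESeq2 also called 2 of them higher, Eif4ebp1 and Cdkn1b (adjusted p = 0.0182 and 0.0279), which were named after their values were seen. The 2 lower genes were Eif4b, a translation factor (-0.49, SE 0.10, edgeR adjusted p = 0.00516), and Cdc25a, a cell cycle phosphatase (-0.57, SE 0.16, edgeR adjusted p = 0.0362). Leaving out single libraries ended the call of Junb (without BM-Treg 4 or SP-Treg 3, adjusted p up to 0.0551), Myc (without any BM-Treg library or SP-Treg 3 or 4, up to 0.119), Batf (without any library but BM-Treg 3 or SP-Treg 3, up to 0.131) and Cdc25a (without any library but SP-Treg 3, up to 0.115), all by edgeR.

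Over the 8 lists, which hold 79 different tested genes, 8 were higher and 10 lower in BM-Treg, 61 did not pass and the median was -0.05. On the FPKM scale the split was 10 higher and 4 lower by limma on log2(FPKM + 1). The 18 called genes are 22.8% of the 79, beside 8.75% of all genes tested, and the lists were drawn up with earlier results of these data known. All 18 called genes kept their direction within batch 3. The libraries of batch 3 were also in the fit that called these genes, so that this is no independent check. With batch as a term, 5 of the 79 were called, of which 4 were among the 18 (Pias3, Il9r, Il6st and Bcl2).

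**Figure D5:**
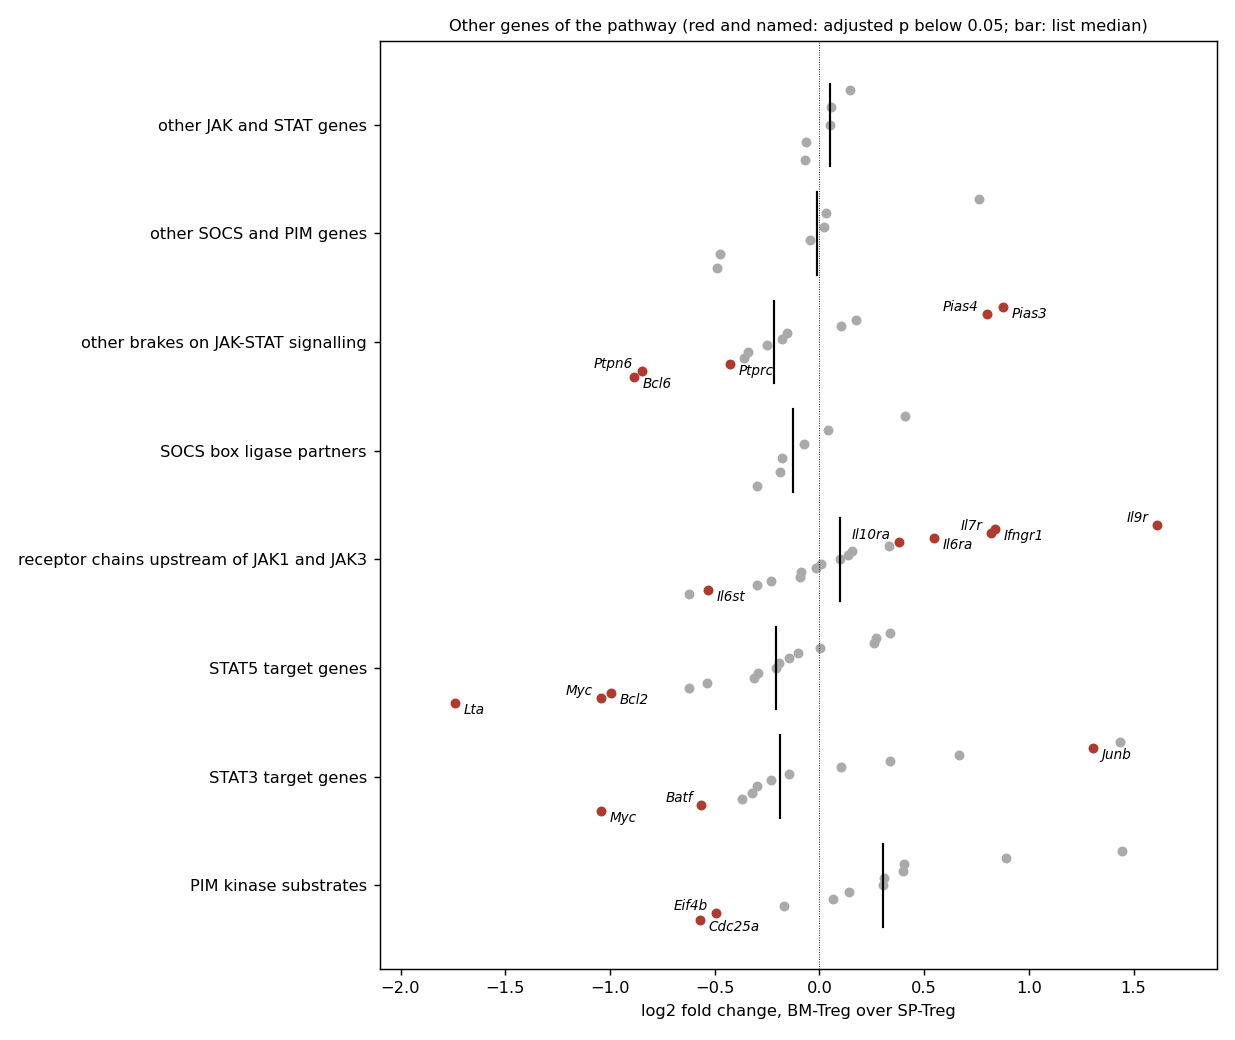
Log2 fold change of BM-Treg over SP-Treg for the tested genes of 8 lists around the pathway, with called genes in red and named, other genes in grey and the median of each list as a black bar. Il9r lies farthest to the right among the called genes (1.61) and Lta farthest to the left (-1.74), and called genes fall on both sides of 0 among receptors, brakes and STAT3 targets.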

How the data were processed

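RNA from sorted FoxP3+ cells (15 ng per library) was amplified by SPIA without molecular identifiers and sequenced from a single end with 80 nt reads, 4 libraries per tissue. The submitters' processing notes name cutadapt 1.9, STAR 2.5.2a, RSEM 1.2.30 and GRCm38, and the annotation version is not given in the sources used here. The authors deposited expected counts (estimated reads per gene and transcript, not normalized) and FPKM (expected counts per transcript length and depth). Libraries held 12427136 to 21921252 expected counts, and errors are the spread between libraries.

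Expected counts were rounded, filtered by edgeR's default on the tissues, scaled with TMM and put through the quasi-likelihood test of edgeR 4.0.16 (R 4.3.3), robust and without covariates, because batch and tissue are nearly confounded. The threshold was an adjusted p of 0.05. Intervals are 95% with 6 residual degrees of freedom before moderation. The paper's methods state no test for the RNAseq. DESeq2 1.42.0, limma 3.58.1 on counts and FPKM, other filters, batch, batch 3 alone, a replicate block and left-out libraries were alternatives. The members, lists, ratios and rules were chosen with earlier results of these data known. Named were all members, called genes of each list (at most 4 by adjusted p), 5 receptor chains (Il2ra, Il2rb, Il2rg, Il7r and Il9r), and the 2 genes most like each called member. Tests were tried on simulated data. Shared windows were 80 bases of GENCODE M21 transcripts. The deposited tables' coordinates are printed for genes. Counts over the lists leave out 1 gene that is not reported here.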

Additional observations from a re-analysis of the deposited data

Results flagged for a closer look

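In groups of 4 libraries, the member levels, ratios and transcript shares were searched for a library far from the other 3 by Dixon's test, in 58 groups, of which chance flags about 1 in 20. This singled out 2 libraries. Stat5a was at 65.1 CPM in BM-Treg 1, against 53.0 to 54.0 CPM in BM-Treg 2 to 4, and without BM-Treg 1 its log2 fold change was -0.03. The protein-coding transcript Cish-201 took 34.1% of Cish counts in BM-Treg 3, while it took 23.9% to 25.02% in BM-Treg 1, 2 and 4.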

How the results depend on the processing

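Pim1 was called, and higher in BM-Treg, under every alternative with a test except batch as a term (0.66, adjusted p = 0.133). The count of members called was 1 and became 0 with batch as a term and 2 with DESeq2, Socs2 being the other gene, and it ran from 1 to 2 when single libraries were left out (2 without BM-Treg 4 and without SP-Treg 1). Replicate numbers are shared between the tissues, and deviations of same-numbered libraries correlated at -0.106, 0.0595, -0.176 and 0.0397. These values show no sign of pairing. They cannot settle it, because batch varies among the BM-Treg but not the SP-Treg libraries. With the replicate number as a block, 2 members (Pim1 and Socs2, edgeR adjusted p = 0.0134 and 0.0359), Il2ra (0.0402) among 18 pathway genes and 948 genes were called. The count of pathway genes called went from 18 to 5 with batch as a term, to 11 at an adjusted p of 0.01, and to 12 to 17 with single libraries left out. The 1172 genes called (499 higher, 673 lower) became 258 with batch as a term, 427 at an adjusted p of 0.01, 765 (482 higher) with limma on log2(FPKM + 1), 728 (454 higher) on log2(FPKM + 0.1), 1231 (632 higher) with at least 10 counts in every library, and 690 to 1048 with single libraries left out (690 without BM-Treg 2). DESeq2 called 27 pathway genes and 1703 genes in all.

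Among members that were not called, the log2 fold change turned sign with batch as a term for Stat5a (-0.064) and Socs3 (0.036), and when single libraries were left out for Stat5a (-0.028 to 0.10) and Stat5b (-0.037 to 0.11). The tissue difference in the share of a retained-intron transcript of Stat3 turned to -0.409 percentage points when taken from FPKM. The cause of these changes was not tested. Counts within batch 3 could not be had, since it holds 1 BM-Treg library. That library, the confounding of batch, sex and tissue, and the low counts of Socs1 limit what these data resolve.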
